A study of Sus scrofa with 6 samples.

Results

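The microRNAs (miRNAs) miR-146a, miR-146b and miR-155 were described in cultured immature Sertoli cells of the pig. Sertoli cells are the supporting cells of the seminiferous tubule, in contact with the developing germ cells. The members were all rows of the deposited table named for these 3 miRNAs, with or without an arm. There were 5 such entries among the 1645 of the table: miR-146a-5p, miR-146a-3p, miR-146b, miR-155-5p and miR-155-3p. They were picked with their difference between the groups already known from earlier results of the same data, so that difference is described here, and the model's calls of the members are given once, beside the share of all entries called, and support nothing. The file gives 358 entries for known pig miRNAs and 1287 for predicted ones.

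Small RNA came from testicular cells of fetuses at 80 to 90 days of gestation. In both groups the cells grew in Minimum Essential Medium with 10% fetal bovine serum and antibiotics and were cultured for 6 h after seeding. The 3 AA2P libraries came from cells then given 250 µM AA2P (L-ascorbic acid 2-phosphate, a stable derivative of vitamin C), and the 3 control libraries from cells that received none. The length of treatment was not given. Separate cultures or animals behind the libraries of a group are not stated, so the spread between them, and every p-value, may be technical. The comparison asks which miRNAs differ with AA2P. Values are the authors' TPM, the reads of an entry scaled to a common library total, with no length term seen in the values. The steps between low values put the depth at 26.9, 36.0 and 32.5 Mreads (with M for mega) in the AA2P libraries and at 25.8, 32.2 and 30.3 Mreads in the control libraries.

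As background, NF-κB is the transcription factor that Toll-like receptors and cytokine receptors activate, and it induces transcription of the miR-146a and miR-155 genes. miR-146a and miR-146b come from separate genes, share a seed and differ only near the 3′ end, and they repress the adaptor proteins TRAF6 and IRAK1, which closes a negative feedback loop on the same receptors. miR-155, processed from the BIC transcript, represses SOCS1 and INPP5D (SHIP1), which restrain cytokine and phosphoinositide signalling, and is known for its high level in activated lymphocytes and macrophages. In the testis, Sertoli cells carry Toll-like receptors and take part in local immune control. In the RefSeq annotation of Sscrofa11.1 the 3 hairpin genes lie apart: the coding gene nearest to MIR146A is PTTG1, that nearest to MIR146B is CUEDC2, and that nearest to MIR155 is MRPL39. The mature sequences were not used here.

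All 3 abundant members stood lower in the AA2P libraries than in any control library. miR-146a-5p, the main product of its hairpin, had 1593, 1940 and 1877 TPM in the AA2P libraries, against 4183, 4000 and 4603 TPM in the control libraries. The groups did not overlap, and the lowest control library was 2.06 times the highest AA2P library. Its mean was 1804 ± 185 TPM with AA2P and 4262 ± 309 TPM in controls (SD, n = 3 each), a ratio of 0.423. On the log2(TPM + 1) scale, which understates the change of low entries, the difference of AA2P minus control was -1.24 (SE 0.102 from the limma model over all tested entries). Among the 358 known miRNAs it ranked 54th, 47th and 48th in the AA2P libraries and 26th, 26th and 24th in the control libraries. These values rest on 42806 to 69793 reads with AA2P and 108042 to 139616 reads in controls, where counting error is at most 0.483%, far under the spread between libraries.

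miR-146b, the copy from the other gene, was much scarcer and stood lower still. It had 41.1, 60.4 and 57.8 TPM in the AA2P libraries, against 169.7, 154.9 and 171.7 TPM in the control libraries. No AA2P value came near the control range, whose lowest library was 2.57 times the highest AA2P library. The means were 53.1 ± 10.5 and 165 ± 9.21 TPM (SD, n = 3 each, AA2P and control), a ratio of 0.321, and the difference on the log2(TPM + 1) scale was -1.64 (SE 0.160). Whether reads that could come from either copy were split or counted more than once is not given in the sources used here, which leaves the single values, and their sum if shared reads were counted more than once, uncertain. The sum was 1634, 2001 and 1935 TPM with AA2P and 4353, 4154 and 4775 TPM in controls, a log2 difference of -1.26.

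miR-155-5p differed least. It had 344, 409 and 375 TPM in the AA2P libraries, against 491, 614 and 629 TPM in the control libraries. The groups did not overlap, but the lowest control library was only 1.20 times the highest AA2P library. The means were 376 ± 32.5 TPM with AA2P and 578 ± 76.0 TPM in controls (SD, n = 3 each), a ratio of 0.650, with a difference of -0.61 on the log2(TPM + 1) scale (SE 0.124). Within each group the 3 members had extremes in common: AA2P replicate 1 was the lowest and AA2P replicate 2 the highest AA2P library for each of them, and control replicate 3 was the highest control library for each. These are bulk libraries, in which fewer cells that hold a miRNA and less of it per cell cannot be told apart.

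**Figure D1:**
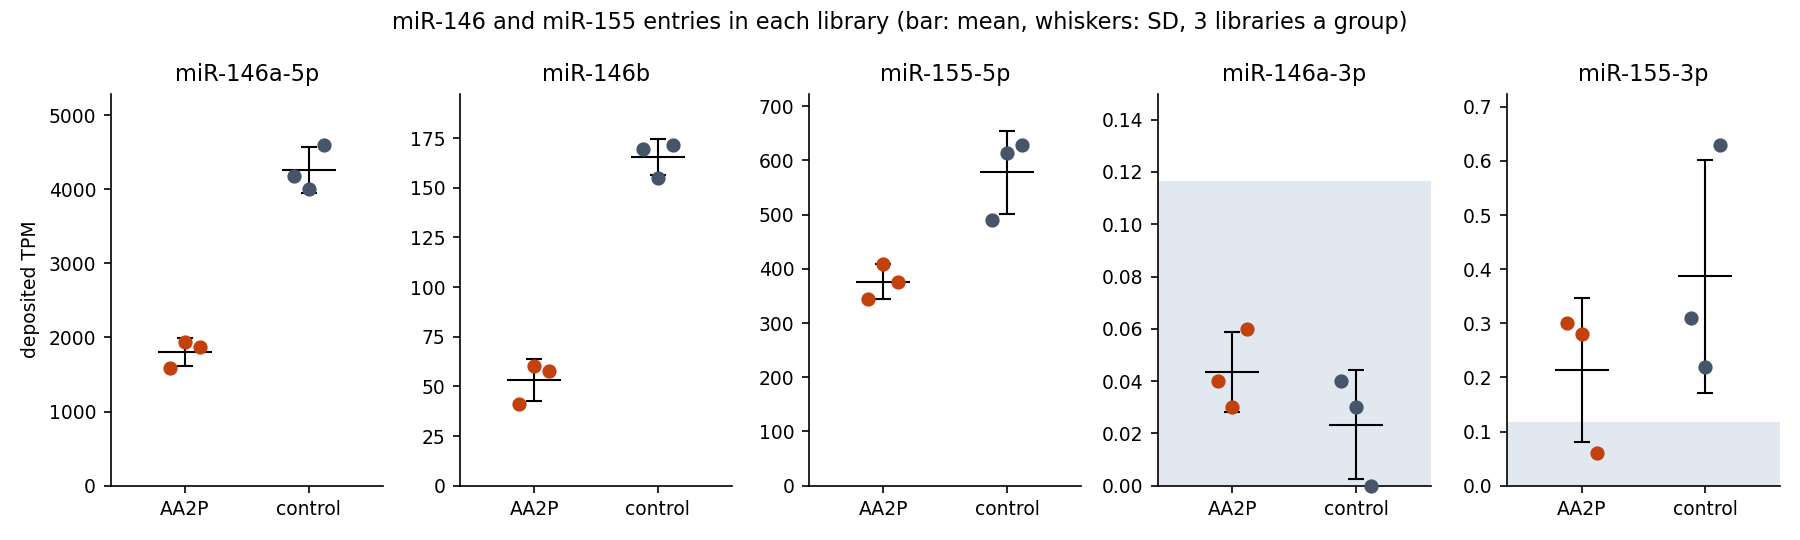
Deposited TPM of the 5 miR-146 and miR-155 entries in each library, AA2P left and control right, with a separate linear axis from 0 for each entry (points: libraries; bar and whiskers: mean and SD, n = 3; grey band: values under 3 reads in the shallowest library). The groups are apart for miR-146a-5p, miR-146b and miR-155-5p, with the smallest gap for miR-155-5p, and they overlap for both 3p arms.

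The opposite arms were close to the detection limit. miR-155-3p had 0.30, 0.28 and 0.06 TPM with AA2P and 0.31, 0.22 and 0.63 TPM in controls, which correspond to 8, 10 and 2 reads and to 8, 7 and 19 reads. The groups overlapped, and these counts could show no difference of the size seen for the 5p arm. The 3p arm made up 0.0164% of the reads of both arms in AA2P replicate 3 (95% Wilson interval 0.00450 to 0.0598) and 0.0995% in control replicate 3 (0.0637 to 0.155), with the other libraries between these. miR-146a-3p had at most 2 reads in any library, 4 reads in all with AA2P and 2 in controls, under the 3 reads that a count of 0 allows, so no ratio was formed. The intervals and the floor cover counting error alone, because the reads carry no molecular identifiers and may be copies. In each library miR-146a-5p was followed by miR-155-5p, miR-146b and then the 3p arms, and the ranges of the 3 abundant members over all libraries did not overlap. Of the 3p arms, miR-155-3p had more reads than miR-146a-3p in every library but AA2P replicate 3. There they could not be ordered, with the same 0.06 TPM.

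Set against all entries, the members lay far down in the distribution of differences. The limma test covered the 433 entries that reached 1 TPM in 3 or more libraries. Of the 5 members 3 passed this filter, each with over 40 TPM in every library, while both 3p arms stayed under it. All 3 that passed were called lower at a Benjamini-Hochberg adjusted p of 0.05, where 4.85% of the tested entries were, and all 3 had every AA2P library under every control library, as 9.24% of the tested entries did. Since the members were chosen on this contrast, nothing is read from these counts. In order of the log2 difference from the lowest up, miR-146b was 6th, miR-146a-5p 12th and miR-155-5p 39th of 433. Among the 204 known miRNAs with a mean of at least 10 TPM they were 2nd, 4th and 10th. The lowest of those was miR-210, a miRNA known for its induction by hypoxia, at -2.57.

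**Figure D2:**
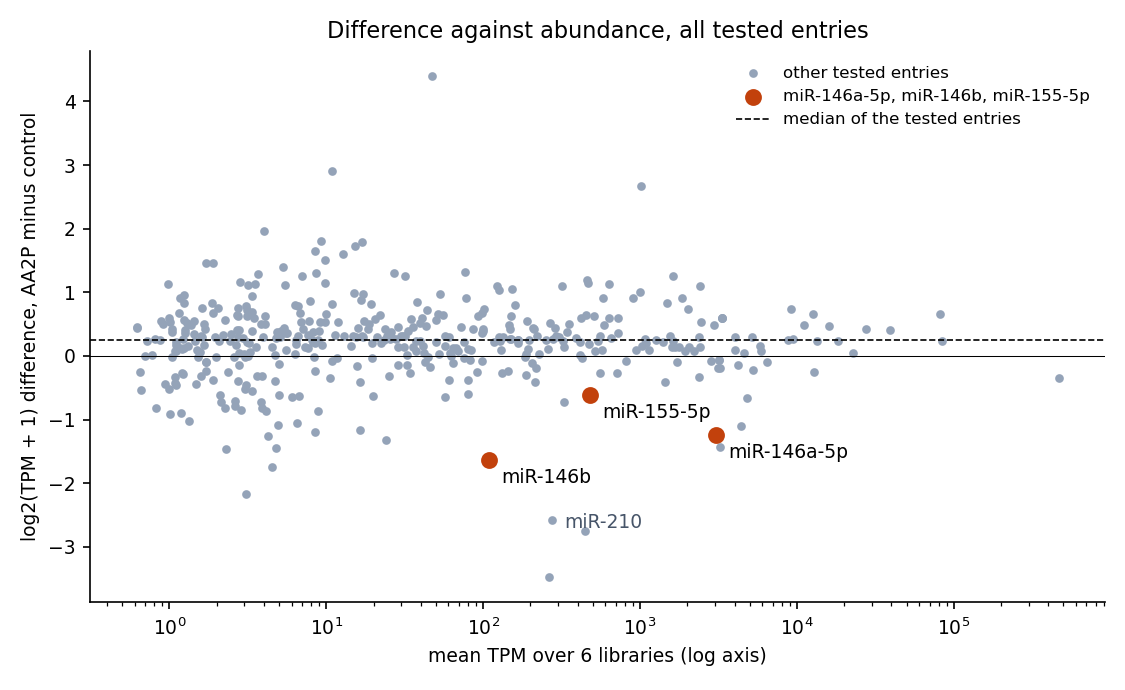
Log2(TPM + 1) difference of AA2P minus control (vertical) against mean TPM over the 6 libraries (horizontal, log axis) for the 433 tested entries. miR-146b, miR-146a-5p and miR-155-5p lie at -1.64, -1.24 and -0.61, under the median of all tested entries at 0.25 (dashed).

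The scaling sets how far below 0 the members lie, but not the side. As deposited, the tested entries had a median log2 difference of 0.25, and relative to it miR-146a-5p stood at -1.49, miR-146b at -1.89 and miR-155-5p at -0.86. The 5 other scalings moved that median by -0.28 to -0.17, and the members' differences then lay between -1.56 and -1.32 for miR-146a-5p, between -1.95 and -1.85 for miR-146b and between -0.94 and -0.81 for miR-155-5p. The calls over all entries were 86 higher and 21 lower as deposited, against 46 and 51 with trimmed-mean scaling, 48 and 51 with median-of-ratios scaling, 44 and 40 with quantile normalization, 40 and 43 with totals without miR-21-5p and 52 and 36 with totals without the 10 most abundant entries. They were 54 and 8 without control replicate 3 and 62 and 13 without control replicate 2.

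**Figure D3:**
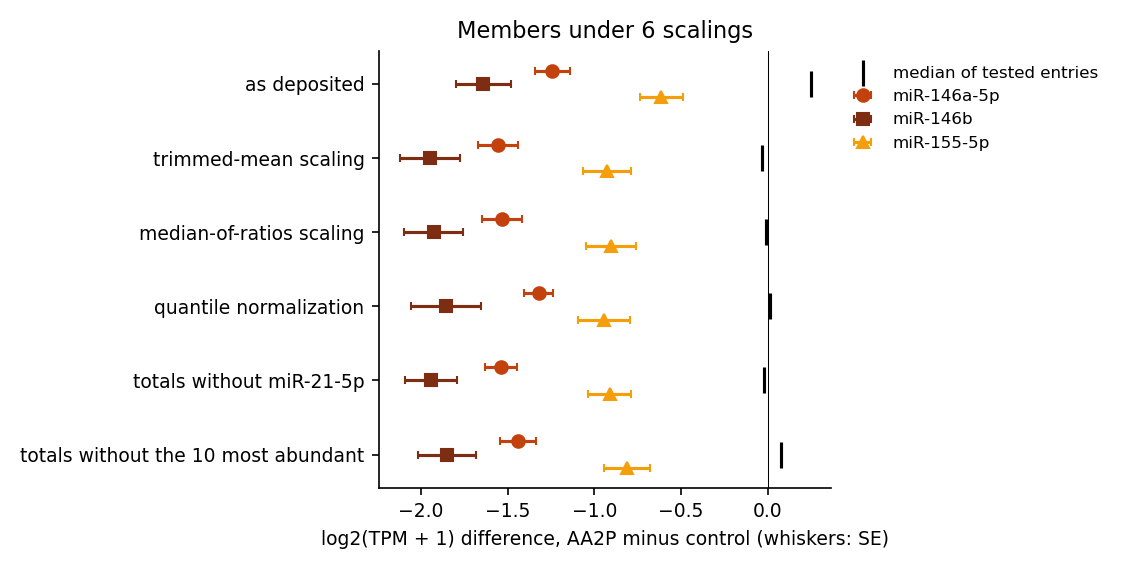
Log2(TPM + 1) difference of AA2P minus control for miR-146a-5p, miR-146b and miR-155-5p under 6 scalings (points and whiskers: estimate and SE from limma; black ticks: median of the 433 tested entries). Each member stays below 0 and below the median under each scaling, from -1.95 for miR-146b to -0.61 for miR-155-5p.

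Ratios between members within a library do not depend on scaling to a common total. miR-146a-5p was 38.8, 32.1 and 32.5 times miR-146b in the AA2P libraries, against 24.6, 25.8 and 26.8 times in the control libraries. The share of miR-146b in the summed miR-146 reads was thus 2.84% ± 0.284 with AA2P and 3.74% ± 0.152 in controls (SD, n = 3 each), with no overlap. The ratio of miR-146a-5p to miR-155-5p was 4.63, 4.75 and 5.00 with AA2P and 8.52, 6.51 and 7.32 in controls, again apart. miR-155-5p was 8.38, 6.77 and 6.49 times miR-146b with AA2P and 2.89, 3.97 and 3.66 times in controls. These ratios come from the contrast the members were chosen on and are a description without a test. Together the 5 entries took 0.223% ± 0.0226 of the library with AA2P and 0.501% ± 0.0347 in controls (SD, n = 3 each).

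**Figure D4:**
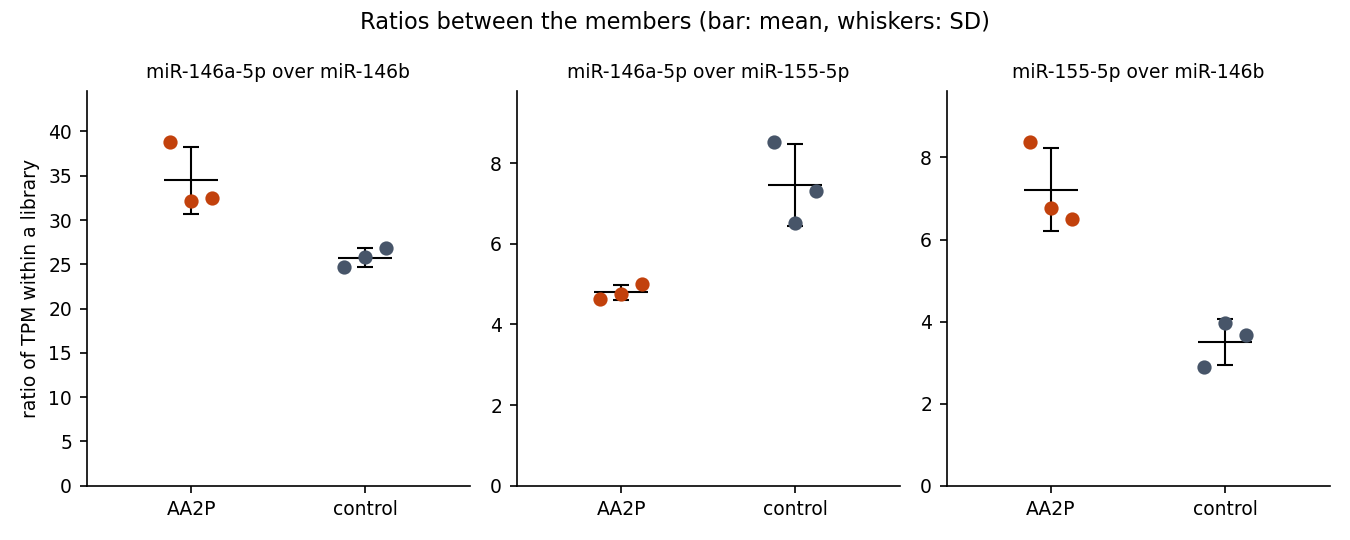
Ratios of TPM between members within each library, AA2P left and control right, on linear axes from 0 (points: libraries; bar and whiskers: mean and SD, n = 3). With AA2P, miR-146a-5p is higher relative to miR-146b and lower relative to miR-155-5p, and the groups do not overlap in any of the 3 ratios.

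The entries most like each member over the 6 libraries were found by the root mean square difference of centred log2(TPM + 1) profiles, among 248 other entries with a mean of at least 10 TPM. For miR-146a-5p the nearest were miR-222 (0.129), miR-221-3p (0.143), miR-146b (0.219), miR-221-5p (0.273) and miR-574-5p (0.332). For miR-146b they were miR-222 (0.125), miR-146a-5p (0.219), miR-221-3p (0.308), miR-221-5p (0.466) and miR-574-5p (0.540). miR-221 and miR-222 are known as repressors of the cell cycle inhibitor CDKN1B. miR-222 averaged 1760 ± 248 TPM with AA2P and 4732 ± 389 TPM in controls (SD, n = 3 each), and miR-221-3p 2783 ± 204 and 6032 ± 1019 TPM. For miR-155-5p the nearest were miR-221-5p (0.108), miR-574-5p (0.179), miR-152 (0.194), miR-23a (0.200) and miR-29a-3p (0.211), while its distance was 0.336 to miR-146a-5p and 0.542 to miR-146b. Likeness here is over 6 libraries that fall into 2 groups, so it mostly ranks entries by the size of the difference between the groups.

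A chosen list of other miRNAs that NF-κB or Toll-like receptor signalling is known to induce gave 1 call in each direction. Of all tested entries 19.9% were called higher and 4.85% lower, and nothing particular to the list is read from its counts. Of 7 on that list (miR-9, miR-21-5p, miR-132, miR-147, miR-212, miR-224 and miR-301) 6 were listed and 4 were tested, with 1 call higher, 1 lower and a median log2 difference of 0.49, against 0.25 for all tested entries. miR-9, which represses NFKB1, had 4409, 3840 and 3785 TPM with AA2P and 2745, 2600 and 2617 TPM in controls. It rose 1.51-fold (limma, adjusted p = 0.00443), and 19.9% of the tested entries were called higher. miR-21-5p, which represses the tumour suppressor PDCD4 and was the most abundant entry, had 422056, 369599 and 441014 TPM with AA2P and 513034, 530173 and 518480 TPM in controls, and fell to 0.789 of the control mean (limma, adjusted p = 0.0254). The miR-21-5p call ended without AA2P replicate 1 and without any 1 of the control libraries. That of miR-9 ended with totals without miR-21-5p (limma, adjusted p = 0.0768). The log2 difference of miR-9 was 0.59 as deposited and 0.28 to 0.60 under the 5 other scalings. miR-132 stood at 4.40 ± 0.866 TPM with AA2P and 2.36 ± 0.592 TPM in controls (SD, n = 3 each) and did not pass (limma, adjusted p = 0.0577). miR-301 stood at 5.99 ± 0.887 and 4.34 ± 0.790 TPM and did not pass either (limma, adjusted p = 0.147). miR-212 was under 1 TPM in all 6 libraries, and miR-224 had at most 0.10 TPM.

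miRNAs known to restrain the pathway at other points than the miR-146 targets gave 3 calls higher and none lower among 12 tested, against 19.9% of all tested entries called higher and 4.85% called lower. The list held 15 miRNAs, of which 13 were listed, with a median log2 difference of 0.32 against 0.25 for all tested entries. At an unadjusted limma p under 0.05 there were 8 higher and 2 lower, against 32.1% and 7.85% of all tested entries, and nothing particular to the list is read from these counts. miR-181b, which represses the importin KPNA4 that carries NF-κB into the nucleus, had 170, 186 and 149 TPM with AA2P and 83.6, 68.4 and 82.8 TPM in controls. It rose 2.15-fold (limma, adjusted p = 0.00315). miR-181a, of the same family, had 129, 130.1 and 119.5 TPM with AA2P and 83.6, 66.9 and 77.4 TPM in controls and rose 1.66-fold (limma, adjusted p = 0.00519). miR-200b, better known as a repressor of ZEB1 and ZEB2, rose 1.68-fold, to 2519 ± 297 TPM with AA2P against 1496 ± 41.9 TPM in controls (SD, n = 3 each; limma, adjusted p = 0.00443). These 3 calls held in each of the 18 alternatives run, and the higher count was 5 without AA2P replicate 3 and 6 with known entries only. The log2 differences as deposited were 1.09 for miR-181b, 0.73 for miR-181a and 0.74 for miR-200b. Under the 5 other scalings they were smaller, at 0.78 to 0.91, 0.42 to 0.56 and 0.43 to 0.56. miR-31, at 642 ± 10.6 and 774 ± 87.3 TPM, and miR-149, at 52.7 ± 6.36 and 68.5 ± 6.78 TPM, did not pass as deposited (limma, adjusted p = 0.0984 and 0.0763), but miR-31 passed as lower under all 5 other scalings and without control replicate 2, and miR-149 under 4 of those scalings. Under those 5 scalings 36 to 51 of the 433 tested entries were called lower, and 13 without control replicate 2, against 21 as deposited. The other 7 tested miRNAs (miR-10a-5p, miR-15a, miR-15b, miR-16, miR-23b, miR-145-5p and let-7i-5p) did not pass, with log2 differences of 0.24 to 0.35, close to the median of all entries.

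**Figure D5:**
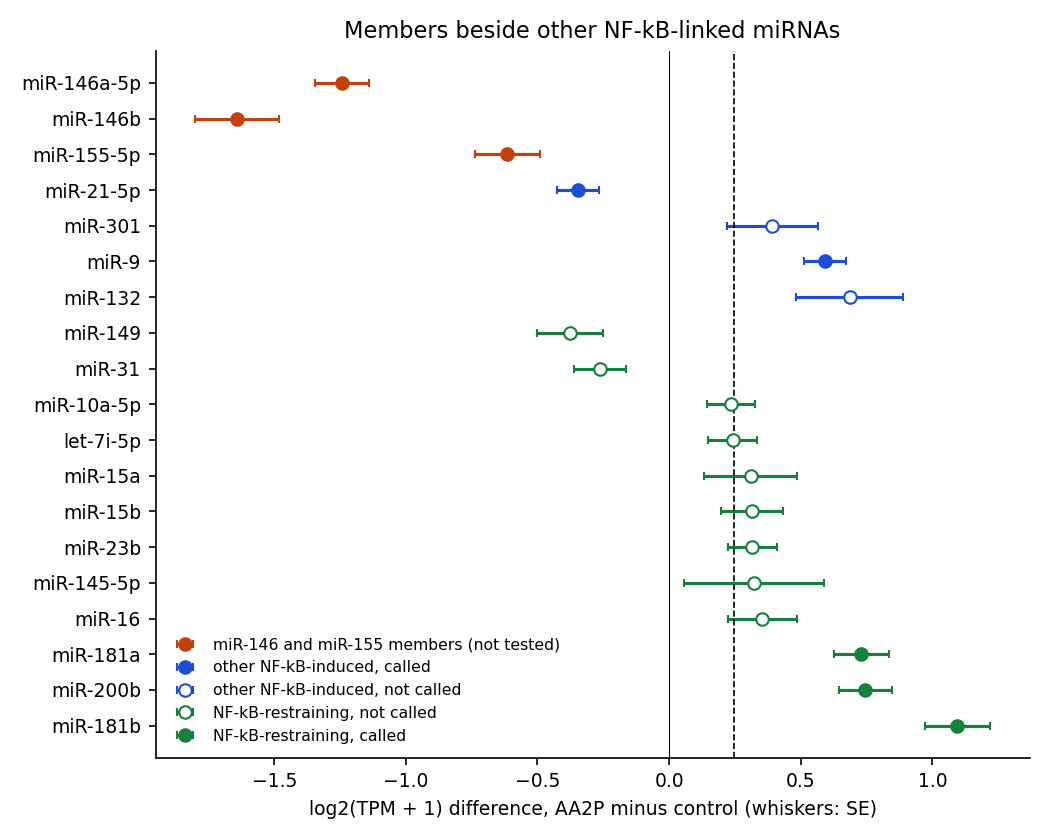
Log2(TPM + 1) difference of AA2P minus control, with SE, for the 3 abundant members and the tested miRNAs of both NF-κB lists (filled: called by limma over all entries, members shown without a test; dashed line: median of all tested entries, 0.25). The members lie at -0.61 and below, miR-21-5p at -0.35, and miR-9, miR-181a, miR-200b and miR-181b between 0.59 and 1.09.

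Markers of other cells that the cultures could hold gave no lower call as deposited, but 2 of them did under 3 other scalings. Those 3 scalings also gave more lower calls over all entries. miR-155 and miR-146a are abundant in white blood cells, and the 7 leukocyte and blood miRNAs summed to 4.48 to 14.3 TPM in the AA2P libraries and 4.87 to 5.90 TPM in the control libraries, with 3 of the 7 (miR-144, miR-150 and miR-223) listed at 0 in at least 1 library. Of the 7, only 2 reached the test, miR-142-3p and miR-486. Neither was called lower as deposited, where 4.85% of all tested entries were. At an unadjusted limma p under 0.05 miR-486 was lower, as were 7.85% of all tested entries. miR-486, a miRNA of red blood cells at 2.34 ± 0.710 TPM with AA2P and 3.76 ± 0.549 TPM in controls (SD, n = 3 each; limma, adjusted p = 0.118), was called lower with trimmed-mean scaling, median-of-ratios scaling, quantile normalization and known entries only (limma, adjusted p = 0.0376, 0.0390, 0.0323 and 0.0221). Over all entries, lower calls in these settings were 51, 51 and 40 of 433 and 19 of 264, in the same order, against 21 of 433 as deposited. The part of miR-486 in the members' values was not tested. miR-142-3p, which white blood cells express at a high level, had 1.98 ± 0.627 TPM against 0.507 ± 0.0802 TPM (SD, n = 3 each, AA2P and control). It was called higher (limma, adjusted p = 0.0293), as were 19.9% of all tested entries. It passed the filter only through the AA2P libraries, and 10 of 17 alternatives did not call it, including those without AA2P replicate 1, AA2P replicate 3 or any 1 control library. The sum of the 7 leukocyte and blood miRNAs, red blood cell ones such as miR-486 among them, was highest in AA2P replicate 1, at 14.3 TPM. Of this, 5.40 TPM were miR-223, which had at most 0.06 TPM in any other library. All 3 abundant members were lowest in the same library, and the part of these miRNAs in the members' values was not tested. The endothelial miRNAs (2 of 2 tested, none called) summed to 86.8 to 111 TPM with AA2P and 98.4 to 112 TPM in controls, and the myoid ones (4 of 5 tested, none called) to 219 to 306 and 167 to 227 TPM. At an unadjusted limma p under 0.05 these lists gave 0 and 1 higher and 0 and 0 lower, against 32.1% and 7.85% of all tested entries. miR-126-3p, an endothelial miRNA, was called lower under the same 3 scalings as miR-486 (limma, adjusted p = 0.0225, 0.0238 and 0.0399). miR-1, a muscle miRNA, was called higher with a mean of at least 10 TPM, with known entries only and without AA2P replicate 3. In these 3 settings 78 of 255, 95 of 264 and 74 of 433 entries were called higher. Of 4 germ cell miRNAs only miR-34c was tested. It was called higher (limma, adjusted p = 0.0464), as were 19.9% of all tested entries. The call ended under all 5 other scalings and without AA2P replicate 1, AA2P replicate 3 or any 1 control library. The lists held no miRNA that defines Sertoli cells, so the cell label itself was not checked.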

How the data were processed

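The authors deposited 1 table of TPM for 6 libraries, 3 AA2P and 3 control, whose columns each sum to 999999.82 to 1000000.08; the name TPM comes from the file, and the submitters' processing notes name Bowtie with no version. Build, miRBase release, mismatch limit and the treatment of shared reads: not given in the sources used here. Depth was taken from the step between low values, and 100% of the low values fell within 0.006 TPM of a multiple of that step, but rounding to 2 decimals kept the values from passing the limit for count tests, so none was run. Values were tested as log2(TPM + 1) by limma 3.58.1 in R 4.3.3 with a mean-variance trend and no block, two-sided, adjusted by Benjamini-Hochberg over the 433 entries that reached 1 TPM in 3 or more libraries. SE are limma's. The 3 identical miR-9 entries counted once in the list. The fit was tested on simulated data in which the most abundant entries were left unchanged, so that test does not cover a change of miR-21-5p. Intervals used scipy 1.17.1. The members, lists and rules were chosen with earlier results of these data known. Named entries were the members, the list miRNAs, and per member the 5 most alike. The alternatives were 5 scalings, 2 pseudocounts, 2 filters, known entries only, no trend, a replicate block and leaving out each library.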

Additional observations from a re-analysis of the deposited data

Results flagged for a closer look

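Among the marker miRNAs, 4 that were too scarce to be tested had a signal in at least 1 AA2P library that exceeded every control library by more than 3 reads. miR-223, known from granulocytes and monocytes, had 5.40 TPM in AA2P replicate 1, with 0.06 TPM in the next AA2P library, 0 in the lowest and at most 0.04 TPM in controls. miR-142-5p, from the same hairpin as miR-142-3p, reached 2.08 TPM in AA2P replicate 1 and 0.72 and 0.74 TPM in the other AA2P libraries, against at most 0.56 TPM in controls. miR-451, a miRNA of red blood cells, reached 1.11 TPM in AA2P replicate 3, against at most 0.81 TPM in controls, and the other AA2P libraries lay at 0.31 and 0.82 TPM. miR-206, a miRNA of skeletal muscle, reached 0.47 TPM in AA2P replicate 2 and 0.41 and 0.40 TPM in the other AA2P libraries, against at most 0.31 TPM in controls. The search looked only for values above the controls, so it could not list a marker that was lower with AA2P. The first 3 belong to the leukocyte and blood list and had their highest value in an AA2P library. For miR-223 and miR-451 the groups overlapped. miR-486, a red blood cell miRNA of the same list, went the other way, with means of 2.34 TPM with AA2P and 3.76 TPM in controls. The part of these miRNAs in the values of miR-146a-5p, miR-146b and miR-155-5p was not tested.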

How the results depend on the processing

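The differences of miR-146a-5p, miR-146b and miR-155-5p kept their sign in all 18 alternatives, with leave-one-out ranges of -1.30 to -1.16, -1.74 to -1.47 and -0.73 to -0.55. They moved by more than the spread within groups in these cases: miR-146a-5p to -1.56 with trimmed-mean scaling, -1.53 with median-of-ratios scaling, -1.54 with totals without miR-21-5p and -1.44 with totals without the 10 most abundant entries; miR-146b to -1.95, -1.93 and -1.94 in the first 3 of these; and miR-155-5p to -0.93, -0.90, -0.91 and -0.81 in the same 4 and to -0.94 with quantile normalization. The log2 ratios of miR-146a-5p to miR-146b (0.40) and to miR-155-5p (-0.63) stayed within their spread, at 0.31 to 0.44 and -0.72 to -0.53.

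Over all entries, the 107 calls (86 higher, 21 lower) became 57 without a filter (48 and 9, with 1645 entries tested) and 63 with the replicate block (52 and 11). Leaving out 1 library gave 62 to 98 calls (54 to 78 higher, 8 to 20 lower), fewest without control replicate 3 (62 calls, 54 higher and 8 lower), then without control replicate 2 (13 lower). Lower and higher calls were 51 and 46 with trimmed-mean scaling, 51 and 48 with median-of-ratios scaling, 40 and 44 with quantile normalization, 43 and 40 with totals without miR-21-5p and 36 and 52 without the 10 most abundant. The block rests on the label numbers, and the labels do not say whether these pair the libraries. The deviations of same-numbered libraries from their group means had correlations of 0.29, 0.06 and 0.18, and 5 of 6 libraries correlated best with their own number. Control replicate 2 correlated better with AA2P replicate 3 (0.11) than with AA2P replicate 2. The cause of these moves was not tested.

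On the NF-κB-induced list the higher count of 1 became 0 with totals without miR-21-5p and 2 with known entries only or no trend. Its lower count of 1, miR-21-5p, became 0 with quantile normalization, no filter, no trend, the replicate block, and without AA2P replicate 1 or any 1 control library. Quantile normalization gives the top entry of each library the same value, so under it miR-21-5p could not be called. On the restraining list the higher count of 3 became 6 with known entries only and 5 without AA2P replicate 3. Its lower count of 0 became 2 under each of the 5 other scalings, and 1 with a mean of at least 10 TPM, with known entries only and without control replicate 2. Signs turned for miR-10a-5p, to -0.0775 with trimmed-mean scaling, -0.0545 with median-of-ratios scaling and -0.0597 when miR-21-5p left the totals. For let-7i-5p they turned to -0.0712, -0.0482 and -0.0534 in the same order. With quantile normalization let-7i-5p stood at -0.21 and was called lower. That scaling sets values by rank alone, and the SE of let-7i-5p was 0.00478 there, against 0.0925 as deposited, so nothing is read from this call. Signs also turned with quantile normalization for miR-16 (-0.0444) and miR-23b (-0.0129). For miR-126-3p (-0.0792 as deposited) leaving out 1 library gave -0.164 to 0.0183, with the sign turned without AA2P replicate 3.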
